A study of Mus musculus with 2 samples.

Results

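The genes described here carry the insulin signal in liver cells and the pathway it switches off, the synthesis of glucose. They were chosen by name: the receptor Insr, the adaptors Irs1 and Irs2, the transcription factor Foxo1, its coactivator Ppargc1a, and the gluconeogenic enzymes Pck1, Pck2, G6pc, G6pc3 and Fbp1. Of these 10 genes, 7 had values among the 21145 genes of the series and are reported. Pck1, G6pc and Fbp1 were not analysed here. Expression was measured by RNA sequencing in AML12, a nontumorigenic mouse hepatocyte line from strain CD1/MT42, used at passages 14 to 16. In 1 line a lentivirus drove stable expression of H19, a long noncoding RNA (Lv-H19, titled Over19, called the H19 library here) and the other line carried the control virus (Lv-NC, titled Ctrl, called the control library). The promoter of the vector and the number of clones behind each line are not stated in the labels. Both lines were selected with 0.5 mg/ml puromycin and kept in 0.25 mg/ml, per the labels. With 2 libraries, 1 per group, replicate error could not be estimated and differences were not tested. They apply to this pair of libraries.

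Insulin binding activates the receptor kinase, which phosphorylates IRS proteins. These recruit phosphoinositide 3-kinase (PI3K), AKT is activated, and AKT phosphorylates FOXO1 and keeps it out of the nucleus. In the fasted liver FOXO1, together with PGC-1alpha (the product of Ppargc1a), drives the genes of phosphoenolpyruvate carboxykinase and glucose-6-phosphatase. Much of this control acts on proteins rather than on transcript levels. The parental line is grown with an insulin-transferrin-selenite supplement and 40 ng/ml dexamethasone, a glucocorticoid, whereas the medium that the labels give for the stable lines names serum (10%) and puromycin. Whether the latter also held insulin and dexamethasone is not stated in the labels.

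The promoters of both adaptor genes and of the measured isoenzymes are shown first, because hormone and nutrient signals reach these genes there and because the adaptor promoters share an arrangement of letters. Each window runs from 250 bases before to 50 bases after the transcription start (RefSeq, GRCm38.p6), and 9 of the 10 genes matched the table. Capitals mark TGTTTTG, the core letters of the insulin response sequence known from Igfbp1 and G6pc, CACGTG, the E-box, and, in Pck2, the letters that match TGATGNAAN, the element read by the stress factor ATF4, which lie on the opposite strand. The windows are those of Irs1 (chr1:82291390-82291689, minus strand), Irs2 (chr8:11008880-11009179, minus strand), Pck2 (chr14:55540016-55540315, plus strand) and G6pc3 (chr11:102189449-102189748, plus strand).
Irs1: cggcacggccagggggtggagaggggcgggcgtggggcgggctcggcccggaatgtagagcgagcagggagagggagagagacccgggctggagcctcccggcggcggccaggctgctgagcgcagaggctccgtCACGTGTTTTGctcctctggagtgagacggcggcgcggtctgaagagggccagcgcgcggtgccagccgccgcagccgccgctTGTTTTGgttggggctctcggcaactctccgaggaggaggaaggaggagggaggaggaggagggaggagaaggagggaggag
Irs2: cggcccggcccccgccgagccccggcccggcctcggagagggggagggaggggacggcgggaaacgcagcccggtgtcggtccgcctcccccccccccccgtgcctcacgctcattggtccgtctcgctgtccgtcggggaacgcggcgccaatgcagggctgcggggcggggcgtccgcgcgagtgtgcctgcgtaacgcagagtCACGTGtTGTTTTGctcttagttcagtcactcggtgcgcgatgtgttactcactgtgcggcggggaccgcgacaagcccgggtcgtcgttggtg
Pck2: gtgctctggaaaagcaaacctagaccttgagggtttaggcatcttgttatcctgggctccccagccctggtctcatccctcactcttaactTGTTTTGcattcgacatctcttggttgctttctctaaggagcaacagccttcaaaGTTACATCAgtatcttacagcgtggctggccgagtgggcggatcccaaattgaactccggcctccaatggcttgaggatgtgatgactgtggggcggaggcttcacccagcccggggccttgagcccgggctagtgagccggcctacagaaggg
G6pc3: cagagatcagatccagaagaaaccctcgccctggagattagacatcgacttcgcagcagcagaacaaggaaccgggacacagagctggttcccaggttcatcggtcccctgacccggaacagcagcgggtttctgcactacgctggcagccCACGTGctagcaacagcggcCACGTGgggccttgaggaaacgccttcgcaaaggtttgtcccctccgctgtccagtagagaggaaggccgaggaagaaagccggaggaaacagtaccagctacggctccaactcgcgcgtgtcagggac

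Searched on both strands, TGTTTTG was found in the windows of Irs1, Irs2, Pck2 and G6pc, and in 6.28% of all 32851 windows of the table. CACGTG was found in Irs1, Irs2 and G6pc3, where it stands 2 times, and in 7.15% of all windows. In Irs1 the E-box starts 115 bases before the transcription start and shares 2 bases with a TGTTTTG that starts at 111, and a second TGTTTTG starts at 32. In Irs2 the E-box starts at 44 and TGTTTTG at 37, with 1 base between them. These positions count from the RefSeq start. In the GENCODE annotation used for gene coordinates here, Irs2 begins at 11008458 on the minus strand, so its whole window lies upstream of the gene. Around this TGTTTTG both adaptor windows read TGTTTTGCTC. An E-box and a TGTTTTG whose first letters lie within 10 bases of each other stood in 9 of the 32851 windows, from 8 genes, among them Irs1 and Irs2. That distance was chosen after the sequences were seen. TGATGNAAN matched in Pck2 and G6pc and in 3.95% of all windows. TGTTTAC, the letters searched as the FOXO core (3.65% of all windows), and the full cyclic AMP response element TGACGTCA (1.79%) were in none of the 9 windows. TGTTTTG was counted apart from that core. TATAAA was in that of G6pc and in 13.6% of all windows. The windows of Irs1, Irs2, Foxo1 and G6pc3 hold 28, 41, 31 and 20 CpG dinucleotides, and those of Pck2, Ppargc1a, Pck1, G6pc and Fbp1 hold 4 to 9, against a median of 7 over all windows. A match of letters is a description and not a binding site, and no binding was measured here.

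The unit of level is FPKM, the fragments of a transcript divided by its length and by the mapped fragments of the library, so genes can be compared with each other. Differences are on the log2(FPKM + 1) scale with the control subtracted from the H19 library, and on that scale the differences of low genes are understated. A gene is called measured when its mean FPKM over both libraries is at least 1, and 2-fold different when its log2 difference is at least 1 in size. H19 itself was listed at 0 in the control, against 4.72 FPKM in the library labelled Over19. Of 11674 measured genes 133 were 2-fold higher (1.14%) and 183 were 2-fold lower (1.57%), together 2.71%. The median log2 difference of these genes was 0.08, and 6877 of them lay above 0 (58.9%) and 4797 below (41.1%).

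Of the 7 genes with values, 6 were measured and Irs1 was not. None of the 6 was 2-fold different, against that background of 2.71%. Insr (-0.55) and G6pc3 (-0.48) lay lowest, Foxo1 (-0.16) and Ppargc1a (-0.02) also lay below 0, and Irs2 (0.10) and Pck2 (0.20) lay above it. The median log2 difference of the 6 was -0.09, with 2 higher and 4 lower. None of the 7 genes is in the authors' deposited table of 561 differing genes, against 21145 genes in the series. The smallest log2 ratio in that table is 1.00 in size. The 6 measured genes all fall short of that, so their absence adds nothing to the 2-fold count. Irs1 does not fall short of it, with a log2 ratio of -1.23 from its FPKM alone, and is absent too. Why it is absent was not tested.

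**Figure D1:**
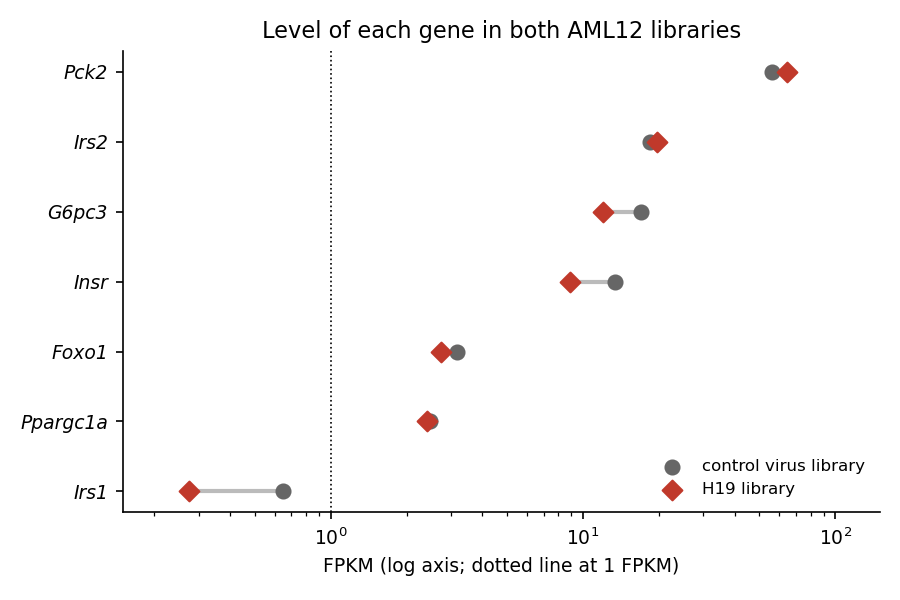
FPKM of the 7 genes with values in the control library (grey circles) and the H19 library (red diamonds), on a log axis with a dotted line at 1 FPKM, 1 library per group and no error bars. Insr, G6pc3 and Irs1 show the wide gaps, and Irs1 lies below 1 FPKM in both libraries.

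Insr (ENSMUSG00000005534, chromosome 8, 3122061 to 3279617, minus strand, GRCm38), the insulin receptor, was at 13.4 FPKM with the control virus and 8.88 FPKM with H19, a 1.51-fold lower level. Its log2 difference was -0.55, and 7.12% of measured genes had a lower value. The closely related receptor of insulin-like growth factor 1, Igf1r, was also lower, at 12.3 and 9.57 FPKM (log2 difference -0.33). Insr made up 52.1% of the summed FPKM of both receptors with the control virus and 48.1% with H19, so the receptors stood at nearly equal levels in each. An annotated gene on the opposite strand within Insr, RP23-99G15.1, was at 0.568 and 0.0680 FPKM. Since no source used here states the use of strand, reads of such overlapping genes cannot be told apart. The added pseudocount keeps that value just short of 1.5-fold. Insr passed 1.5-fold with smaller pseudocounts (-0.59 and -0.60) and under each other scaling, from -0.63 with the median of all genes set to 0 to -0.65 with equal upper quartiles, which shifts the median of all genes by -0.10.

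Irs2 (ENSMUSG00000038894, chromosome 8, 10984681 to 11008458, minus strand), the main insulin receptor substrate of fasting liver, was at 18.4 and 19.7 FPKM (log2 difference 0.10). That is close to the median of all genes, and with equal upper quartiles the sign turned (-0.014). Irs1 (ENSMUSG00000055980, chromosome 1, 82233101 to 82291416, minus strand), the other widely expressed substrate, was at 0.648 and 0.275 FPKM, below the limit for measured genes in both libraries. Irs1 lay 2.35-fold lower in the H19 library by the ratio of its FPKM. Its log2 difference depended on the pseudocount, at -0.37 with 1 and -1.21 with 0.01. A gene on the opposite strand, Gm9747, shares the deposited locus of Irs1 and was at 0.936 and 0.571 FPKM, above Irs1 itself. Irs2 thus made up nearly all of the summed FPKM of Irs1 and Irs2, with 96.6% in control cells and 98.6% in H19 cells. It stood at 28.4 and 71.5 times the level of Irs1. That sum holds no other gene. The promoters printed above, with their shared TGTTTTGCTC, therefore belong to an abundant and a scarce transcript.

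The ratio of Insr to Irs2 does not depend on how the libraries are scaled. It was 0.731 in control cells and 0.451 in H19 cells, a change of -0.70 on the log2 scale. With the lower Insr, Irs2 exceeded its receptor by more in the H19 library than in the control.

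Foxo1 (ENSMUSG00000044167, chromosome 3, 52268336 to 52353221, plus strand), the forkhead factor that insulin restrains, was at 3.18 and 2.74 FPKM (log2 difference -0.16). It was the lowest of the 4 FOXO genes in the control, where Foxo3 (6.15 FPKM) and Foxo4 (6.17 FPKM) were the highest. In the H19 library Foxo3 and Foxo4 were at 4.38 and 4.39 FPKM and Foxo6 passed from 3.98 to 2.66 FPKM, just under Foxo1. All 4 FOXO genes lay lower in the H19 library, against 41.1% of all measured genes. None was 2-fold different, with log2 differences from -0.45 (Foxo6) to -0.16 (Foxo1). Their summed FPKM was 19.5 and 14.2. Foxo1 made up 16.3% of that sum with the control virus and 19.3% with H19. Gm20402, on the opposite strand of the Foxo1 locus, was at 1.87 and 1.66 FPKM.

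Ppargc1a (ENSMUSG00000029167, chromosome 5, 51454250 to 51567726, minus strand), which encodes the coactivator PGC-1alpha that fasting induces in liver, was at 2.47 and 2.42 FPKM (log2 difference -0.02). It was the smallest difference of the 7 genes on the values as deposited, whereas under each other scaling that of Irs2 was smaller (0.016 against -0.102 with the median of all genes set to 0). Its relative Ppargc1b was below the limit, at 0.126 and 0.371 FPKM.

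Pck2 (ENSMUSG00000040618, chromosome 14, 55540266 to 55551242, plus strand), the mitochondrial phosphoenolpyruvate carboxykinase, was the most abundant of the 7 genes, at 56.1 and 64.4 FPKM. Its log2 difference of 0.20 had 37.8% of measured genes above it, and it stayed positive under the other scalings (0.082 with equal upper quartiles). G6pc3 (ENSMUSG00000034793, chromosome 11, 102189620 to 102194081, plus strand), the ubiquitous glucose-6-phosphatase subunit, was at 17.0 and 12.0 FPKM, 1.42-fold lower in the H19 library. Its log2 difference was -0.48, and 9.03% of measured genes had a lower value. The ratio of Pck2 to G6pc3 was 3.29 in control cells and 5.39 in H19 cells.

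The order of the 7 levels was the same in both libraries: Pck2, Irs2, G6pc3, Insr, Foxo1, Ppargc1a and Irs1, from highest to lowest. Without replicates it cannot be said which neighbours in this order differ. Among measured genes with a mean FPKM from 5 to 20, the class of Insr, Irs2 and G6pc3, the central 90% of log2 differences ran from -0.63 to 0.70. From 1 to 5 FPKM, the class of Foxo1 and Ppargc1a, it ran from -0.80 to 0.72, and above 20 FPKM, the class of Pck2, from -0.55 to 0.70. Each of the 6 measured genes lay within the range of its class.

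**Figure D2:**
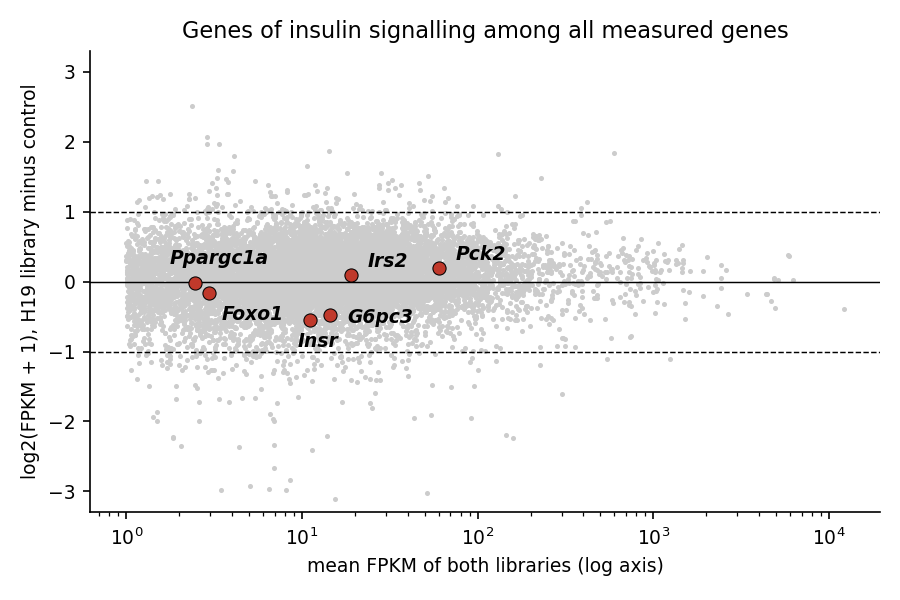
Log2 difference (H19 library minus control) against mean FPKM on a log axis for the 11674 measured genes (grey), with the 6 measured genes of insulin signalling and gluconeogenesis in red and the 2-fold limits dashed. Insr (-0.55) and G6pc3 (-0.48) lie toward the lower edge of the cloud and the other 4 run from -0.16 to 0.20.

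The wider pathway was described with 14 lists of 214 genes, of which 175 were measured. Of these, 69 lay higher and 106 lower in the H19 library, with a median of -0.13, against 58.9% and 41.1% and a median of 0.08 over all measured genes. With equal upper quartiles the split was 49 and 126 and the median -0.24, and with the median of all genes set to 0 it was 53 and 122 and -0.21. Past 2-fold were 2 higher and 6 lower genes, together 4.57% of them, against 2.71% of all. The 2 higher genes were Angptl8 and Pde3b, and the 6 lower ones Lcn2, Mt2, Mt1, Fbp2, Dusp1 and Pdk2. Pde3b and Fbp2 reached the limit for measured genes only through the library where they are high, and with the limit of the mean raised to 5 there were 1 higher and 4 lower of 137 genes. Several of these (Angptl8, Lcn2, Mt2) were known to differ in these libraries when the lists were written, so their presence is no independent evidence.

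Around the receptor, 10 of 11 measured genes of the receptor and adaptor list lay lower, none by 2-fold, with a median of -0.15. Of all measured genes 41.1% lay lower. Shc1, the adaptor that leads from the receptor to RAS, was lowest at 82.5 and 50.3 FPKM, and Irs2 was the gene that lay higher. Sos1, the RAS exchange factor, was at 6.31 and 6.22 FPKM. Of 11 measured inhibitors of the receptor, 7 lay lower and 4 higher, with a median of -0.12. Ptprf, a receptor phosphatase, was at 24.3 and 14.7 FPKM, and Prkcd, a protein kinase C that can phosphorylate IRS proteins, at 25.1 and 16.9 FPKM. Dok1 and Dok4, docking proteins of receptor kinases, were at 18.8 and 21.7 FPKM and at 3.80 and 4.90 FPKM.

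In the PI3K and AKT list, 7 of 15 measured genes lay higher and 8 lower, with a median of -0.07. Of all measured genes 58.9% lay higher and 41.1% lower. Trib3, a pseudokinase that binds AKT and is also induced by stress, was at 107 and 185 FPKM, and Pik3cb, a catalytic PI3K subunit, at 11.5 and 15.7 FPKM. The AKT phosphatase Phlpp1 was at 5.91 and 3.94 FPKM, and Inppl1, which encodes the lipid phosphatase SHIP2, at 31.9 and 23.5 FPKM. Pik3r1, the regulatory PI3K subunit that docks on IRS proteins, was at 10.8 and 12.5 FPKM. Akt1 was at 63.1 and 60.2 FPKM, and Akt2, the isoform of metabolic insulin action, at 30.2 and 35.4 FPKM.

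Of 16 measured mTOR and TSC genes, 11 lay lower, against 41.1% of all measured genes, and 5 higher, with a median of -0.07. Sesn3 and Sesn1, stress proteins that restrain mTORC1, were at 16.2 and 7.98 FPKM and at 4.15 and 3.10 FPKM. Rheb, the GTPase that activates mTORC1, was at 92.4 and 134 FPKM, and Eif4ebp1, a translation repressor that mTORC1 inactivates, at 186 and 219 FPKM. Of 7 measured AMPK genes, 5 lay higher, against 58.9% of all measured genes, with a median of 0.13 that fell to 0.02 with equal upper quartiles. The subunits Prkab2 (2.69 and 3.81 FPKM) and Prkag1 (53.6 and 68.8 FPKM) were highest. The upstream kinase Camkk2 was at 3.60 and 2.70 FPKM, and the subunit Prkab1 at 31.7 and 29.9 FPKM.

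The list of FOXO factors and coregulators had 14 of 23 measured genes higher and 9 lower, a share near the 58.9% of all measured genes, with a median of 0.05 whose sign turned under each of the other scalings. Nr4a1, a nuclear receptor that cyclic AMP induces, was at 4.02 and 6.79 FPKM, and the deacetylase gene Sirt1 at 2.70 and 4.52 FPKM. The lowest were Hnf4a, the nuclear receptor that works with PGC-1alpha on gluconeogenic promoters, at 74.4 and 44.4 FPKM, and Foxo6. Crtc2, the CREB coactivator of the fasting response, was at 18.8 and 20.5 FPKM. Genes listed as FOXO1 targets lay lower in 10 of 15 cases, against 41.1% of all measured genes, with a median of -0.33. That list holds Insr and Irs2 themselves, which went different ways. Sesn3, the pro-apoptotic Bcl2l11 (8.72 and 4.33 FPKM), Txnip, an inhibitor of glucose uptake (4.61 and 2.21 FPKM), and the ubiquitin ligase gene Fbxo32 (3.67 and 1.85 FPKM) lay lowest. Bcl6, a repressor, was at 2.69 and 5.44 FPKM. Angptl8, which insulin induces in liver, was at 5.55 and 22.9 FPKM and was the single gene of this list past 2-fold. The share past 2-fold over all measured genes was 2.71%. In this list the number past 2-fold was 3 and 5 with pseudocounts of 0.1 and 0.01, and 2 under each other scaling. The smaller pseudocounts also raised the number over all 11674 measured genes. It went from 133 higher and 183 lower to 275 and 316 with 0.1 and to 295 and 341 with 0.01. Sesn3, Bcl2l11 and Txnip are in the authors' deposited table with log2 ratios of -1.03, -1.01 and -1.06 and q-values of 0.00434, 0.00241 and 0.00630, from a test that the sources used here do not name. With 1 library per group, q-values of that table cannot reflect variation between replicates.

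**Figure D3:**
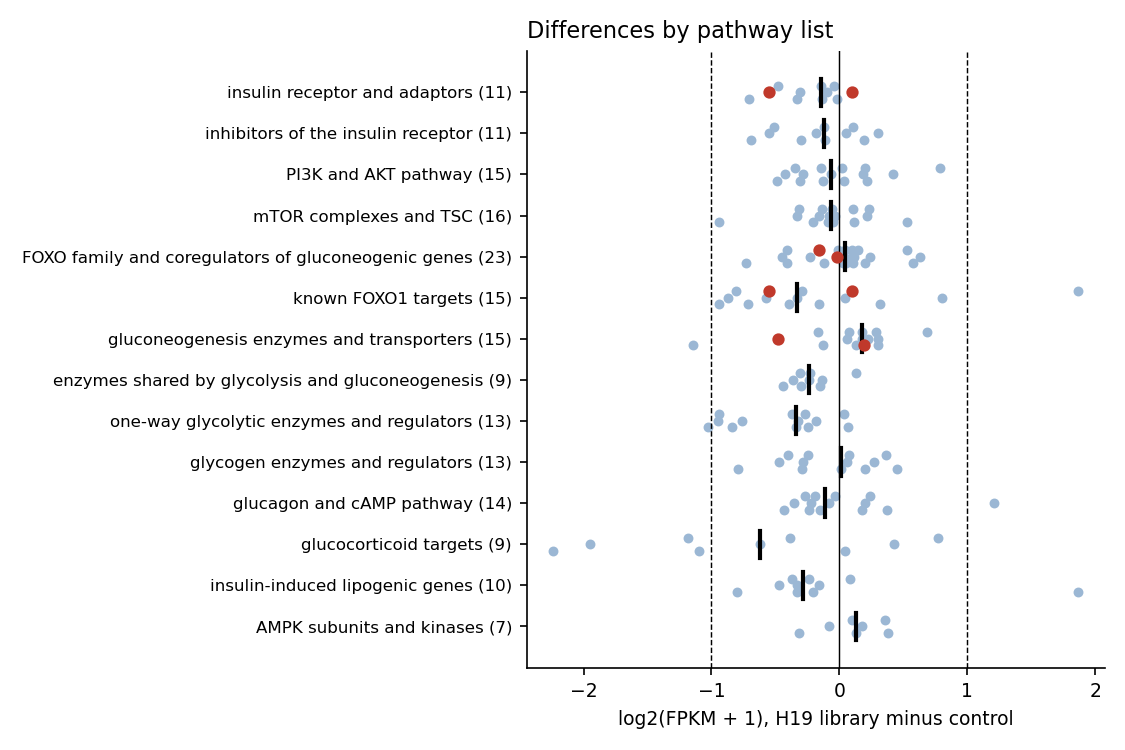
Log2 difference (H19 library minus control) of each measured gene in the 14 lists, with the number of measured genes in brackets, the list median as a black bar, the 2-fold limits dashed and the genes of this report in red. The medians run from -0.62 for glucocorticoid targets to 0.17 for gluconeogenesis enzymes and transporters.

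Genes of gluconeogenesis lay higher in 11 of 15 measured cases, against 58.9% of all measured genes, with a median of 0.17. That median was 0.06 with equal upper quartiles and 0.09 under the other scalings. Got1, the cytosolic aspartate aminotransferase that helps move carbon out of mitochondria, was at 101 and 163 FPKM, and the pyruvate carrier gene Mpc1 at 62.7 and 77.5 FPKM. Pcx, pyruvate carboxylase and the entry step, was at 8.98 and 10.3 FPKM, and Slc37a4, which carries glucose 6-phosphate to the glucose-6-phosphatase, at 6.19 and 6.50 FPKM. G6pc3 went the other way, as did Fbp2, the muscle fructose bisphosphatase, at 2.27 and 0.480 FPKM (log2 difference -1.15). In the authors' deposited table Fbp2 has a log2 ratio of -2.24 and a q-value of 0.00650. That q-value rests on 1 library per group, and Fbp2 reached the limit for measured genes only through the control library.

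The enzymes that glycolysis and gluconeogenesis share lay lower in 8 of 9 cases, against 41.1% of all measured genes, with a median of -0.23. They ran from Gpi1 (180 and 133 FPKM) and Eno2 (8.12 and 6.10 FPKM) to Eno1 (472 and 430 FPKM) and Pgk1 (557 and 610 FPKM). The irreversible glycolytic steps and their regulators lay lower in 11 of 13 cases, against the same 41.1%, with a median of -0.34. Pdk2, which inactivates pyruvate dehydrogenase, was at 6.91 and 2.88 FPKM (log2 difference -1.03), and Pfkl, the liver phosphofructokinase, at 37.0 and 18.7 FPKM. The regulators of fructose 2,6-bisphosphate, Pfkfb3 (6.27 and 6.45 FPKM) and Pfkfb2 (7.16 and 7.55 FPKM), were the 2 that lay higher. Of 13 measured glycogen genes 7 lay higher, a share near the 58.9% of all measured genes. Their median of 0.01 was negative under each of the other scalings. The phosphorylase gene Pygb (18.2 and 10.1 FPKM) and the kinase subunit Phka2 (9.70 and 6.70 FPKM) were lowest, and the synthase gene Gys1 (24.5 and 31.8 FPKM) and the kinase subunit Phkg2 (9.59 and 13.5 FPKM) highest.

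Forms that mark mature liver were compared with the forms of other tissues at 2 steps, set side by side after their values were seen. The liver glucose transporter Slc2a2 was at 1.04 and 0.857 FPKM and Slc2a1 at 42.4 and 41.5 FPKM. At pyruvate kinase the form of other tissues, Pkm, was also the higher, at 14.8 and 16.6 times the liver form Pklr. Pklr itself was well expressed, at 49.7 and 39.0 FPKM. The liver forms at the steps of Pck2, G6pc3, Gys1 and Pygb were not analysed here.

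The labelled cell type was checked against hepatocyte markers, of which 15 of 18 had values and 9 were measured. Alb was at 0.990 and 0.178 FPKM, Ttr at 0.785 and 0.290 FPKM, and Apoa1 at 0.0382 and 0.116 FPKM. Cps1 and Fgb were listed at 0 in control cells and at 0.0152 and 0.0107 FPKM in H19 cells, so these secreted and urea cycle products were near 0. The secreted products Rbp4 (207 and 296 FPKM) and Apob (108 and 104 FPKM) were not. Serpina1a (2.12 and 0.192 FPKM, log2 difference -1.39) and Apoe (1.51 and 4.06 FPKM, log2 difference 1.01) were low. These were the measured hepatocyte markers past 2-fold, in opposite directions, against 2.71% of all measured genes. Serpina1a reached the limit for measured genes only through the control library. Hnf4a was also well expressed (74.4 FPKM in the control). The summed FPKM of hepatocyte markers was 2054 and 1723, most of it from Krt8 (909 and 658 FPKM) and Krt18 (743 and 609 FPKM), keratins of simple epithelia in general. The sum was 3.88 and 1.28 for 7 fibroblast and stellate markers, 5.20 and 1.99 for 5 macrophage and leukocyte markers, 0.478 and 0.323 for 4 endothelial markers and 1.79 and 2.86 for 2 adipocyte markers. Most of the fibroblast and stellate sum came from Des (3.43 and 0.893 FPKM, log2 difference -1.23). Des reached the limit for measured genes only through the control library, and the other 6 markers of that list were below it. The part of cell state in the differences of insulin signalling genes was not tested.

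Hormones that oppose insulin act through other receptors. The glucagon receptor Gcgr was near 0, at 0.0495 FPKM in control cells and listed at 0 in H19 cells. Of 14 measured genes of the cyclic AMP pathway 9 lay lower, against 41.1% of all measured genes, and 5 higher, with a median of -0.11. Pde3b, the phosphodiesterase through which insulin lowers cyclic AMP, was at 0.504 and 2.47 FPKM (log2 difference 1.21), and the authors' deposited table gives a log2 ratio of 2.29 and a q-value of 5.39e-05 for it. That q-value rests on 1 library per group, and Pde3b reached the limit for measured genes only through the H19 library. The kinase subunits Prkar2a (29.0 and 37.9 FPKM) and Prkaca (32.4 and 23.7 FPKM) and the phosphodiesterase Pde4d (2.43 and 1.69 FPKM) bounded the rest. Glucocorticoid targets lay lower in 6 of 9 cases, against 41.1% of all measured genes, with a median of -0.62 (-0.39 with no filter on low values). Of the 9, 4 were 2-fold lower, against 1.57% of all measured genes. These were Lcn2 and the metallothioneins Mt1 (316 and 138 FPKM) and Mt2, which other stimuli also induce, and the phosphatase gene Dusp1 (26.9 and 12.0 FPKM). Lcn2 and Mt2 were known to differ in these libraries when the list was written, so this count is no independent evidence. Tsc22d3, which encodes the glucocorticoid-induced leucine zipper, lay higher at 15.4 and 26.9 FPKM, as did the clock gene Per1 at 7.71 and 10.7 FPKM. The glucocorticoid receptor gene Nr3c1, which the list counts among the 9, was at 20.5 and 21.2 FPKM.

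Genes of the list called insulin-induced lipogenic lay lower in 8 of 10 cases, against 41.1% of all measured genes, with a median of -0.28. The list also holds regulators, among them Srebf1 (the gene of SREBP-1), Mlxipl, Insig1 and Insig2, and it holds Angptl8. Insig1, which holds SREBP in the endoplasmic reticulum, was at 20.2 and 11.2 FPKM, and Acly, which makes cytosolic acetyl-CoA, at 54.9 and 39.4 FPKM. Elovl6, a fatty acid elongase, was at 8.30 and 8.83 FPKM. Angptl8, at 22.9 FPKM in the H19 library, lay higher while 8 of the other 9 measured genes lay lower.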

How the data were processed

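RNA from AML12 lines carrying the H19 virus or the control virus was sequenced on a Hiseq2000, per the series' design text, with 1 library per group. CASAVA 1.4, TopHat2 and the mouse build mm9 are named in the submitters' processing notes. No source used here states which program computed expression, whether strand was used or which test the authors ran. Per the file headers, the authors computed FPKM. The authors' deposited table also holds a log2 ratio, a p-value and a q-value. Although mm9 is named, 99.9% of the loci whose identifiers GENCODE M21 holds (21017 genes) match its GRCm38 positions, and coordinates are taken from that annotation. Read totals are not given in the deposited files, so the depth is unknown and no interval is given. The files hold no whole counts and no count model was used.

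For each gene log2(FPKM + 1) was compared between the libraries, with a pseudocount of 1, a limit of 1 for the mean FPKM and a 2-fold limit. Lists were described by counts and medians, and the shares over all measured genes are given for comparison. Genes named are the 7 with values, the 2 highest and 2 lowest measured genes of each list, those past 2-fold, and relatives or partners of the 7. Txnip, Fbxo32, Nr3c1, Akt1, Akt2, Gm9747, Gm20402, RP23-99G15.1, the liver and other forms set side by side and the hepatocyte markers were named after their values were seen. A few genes of the lists are counted but not reported here. The genes and lists were chosen with earlier results of these data known. With 2 libraries a pattern is a single difference, so no genes were sought as most alike. Promoter windows are from RefSeq on GRCm38.p6 and motifs were searched on both strands. Steps were tested on simulated data. Alternatives were other pseudocounts, filters, scalings and fold limits and the deposited tables of single libraries. Python 3.11.15, numpy 2.4.6, pandas 2.3.3 and matplotlib 3.10.9 were used.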

Additional observations from a re-analysis of the deposited data

How the results depend on the processing

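Insr, Irs1, Foxo1, G6pc3 and Ppargc1a stayed below 0 and Pck2 above 0 under the pseudocounts, scalings and tables tried, while Irs2 turned to -0.014 with equal upper quartiles. Irs1 moved to -0.994 and -1.205 with pseudocounts of 0.1 and 0.01 and to -0.592 with TPM. None of the measured genes of the 10 passed 2-fold under a setting tried, or 1.5-fold or 3-fold with a pseudocount of 1 and no rescaling. Insr passed 1.5-fold under each other pseudocount and scaling (-0.591, -0.596, -0.626, -0.631 and -0.650) and in the plain ratio of its FPKM. Over all genes the higher and lower counts were 275 and 316 with a pseudocount of 0.1, 295 and 341 with 0.01, 86 and 113 with the limit of the mean raised to 5, 192 and 346 with TPM, 83 and 247 with equal upper quartiles, 90 and 238 with the median set to 0, 1050 and 725 at 1.5-fold, and 11 and 42 at 3-fold. Higher genes were 42.1% of those past 2-fold as deposited, 27.4% with the median set to 0 and 25.2% with equal upper quartiles. The median of the FOXO and coregulator list turned to -0.033 with the median of all genes set to 0, -0.059 with equal upper quartiles and -0.014 with TPM. That of the glycogen list turned to -0.067, -0.099 and -0.050 under these, and to -0.116 with the limit of the mean raised to 5. The rescalings lower the medians of all 14 lists, those of AMPK to 0.020 to 0.071 and of gluconeogenesis to 0.061 to 0.094. The 14 lists together held 2 or 3 higher and 9 or 10 lower genes past 2-fold under the other pseudocounts and scalings. The counts at 1.5-fold, at 3-fold and with the limit raised to 5 follow from other limits or fewer genes, and the cause of the other changes was not tested. No paired analysis was possible because there is 1 library per group, and no library could be left out. FPKM holds no depth, so the precision of low genes such as Irs1 is unknown.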

Other observations

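Among the genes on the lists but under the limit for measured genes, Igf2r, the receptor that clears insulin-like growth factor 2, was at 1.45 and 0.501 FPKM, and the authors' deposited table gives it a log2 ratio of -1.53 and a q-value of 0.00753. Foxa1, a forkhead pioneer factor of liver, was at 0.0359 and 0.444 FPKM, with a q-value of 0.00280 in the authors' deposited table. Both q-values rest on 1 library per group and cannot reflect variation between replicates. Grb10, an adaptor that inhibits the insulin receptor, was at 0.0375 FPKM in control cells and listed at 0 in H19 cells. These genes were named after their values were seen.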
